A study of Mus musculus with 9 samples.

Results

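Col6a4, Spag16, Ggt5, Ldlrad3, Ampd1 and Pdlim4 are 6 genes, of 54232 in the count table of a mouse regulatory T (Treg) cell study, whose RNA was higher in Treg cells lacking the deubiquitinases Usp22 and Usp21 than in wild-type Treg cells. They were selected by symbol as large rises in the double knockout among genes that are neither cell cycle genes nor cell type markers. The measured levels in the double knockout therefore chose them, and neither a numeric threshold nor a reference group was stated for the choice. The study holds 3 groups of 3 libraries, each labelled as a separate biological sample. The double knockout (dKO) libraries carry the genotype label Usp21/Usp22 Treg KO, the single knockout libraries (Usp21 KO) carry Usp21 Treg KO, and the remaining libraries are WT. In all 3 groups natural Treg cells were sorted from spleen by YFP reported from Foxp3, the defining transcription factor of these cells, and the treatment field is n/a. Age, sex, strain, litters, the deleted exons and the Cre driver are not given in the labels, and no group lacked Usp22 alone. Differences between mouse lines other than the targeted genes therefore cannot be told apart from the losses themselves.

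Usp22 removes ubiquitin from histones as a subunit of the SAGA transcriptional coactivator complex, and Usp21 is a deubiquitinase with substrates in the nucleus and the cytoplasm. Both have been studied in Treg cells for their effect on Foxp3. The 6 genes have no common pathway. Col6a4 encodes a chain of collagen VI, a filament-forming collagen of the extracellular matrix, and Spag16 encodes a protein of the central apparatus of motile cilia and sperm tails. Ggt5 and Ampd1 encode enzymes, of which the first cleaves gamma-glutamyl bonds in leukotriene C4 and glutathione outside the cell and the second deaminates AMP to IMP and is known mainly from skeletal muscle. Ldlrad3 is a membrane protein of the lipoprotein receptor family that in human cells binds ubiquitin ligases of the Nedd4 family. Pdlim4 is a PDZ and LIM domain protein of the actin cytoskeleton that binds alpha-actinin.

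Promoter sequences are shown for Col6a4, which had the largest difference, and for Pdlim4, whose mean in Usp21 KO was also 4.31 times the WT mean. Each runs 5′ to 3′ over 300 bases, from 250 before to 50 after the RefSeq transcription start, in build GRCm38.p6. The table held such a window for 4 of the 6 genes (Col6a4, Spag16, Ldlrad3 and Pdlim4). Capitals mark matches to the NFAT motif TGGAAA, the GC box GGGCGG and the CCAAT box CCAAT on either strand.
Col6a4, chr9:106096642-106096941, minus strand: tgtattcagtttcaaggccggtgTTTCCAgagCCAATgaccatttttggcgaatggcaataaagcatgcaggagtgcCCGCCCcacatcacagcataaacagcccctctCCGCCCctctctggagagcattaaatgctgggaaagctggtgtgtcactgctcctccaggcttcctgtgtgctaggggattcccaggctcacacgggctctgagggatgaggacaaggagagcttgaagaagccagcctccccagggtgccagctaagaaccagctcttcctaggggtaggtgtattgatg
Pdlim4, chr11:54068968-54069267, minus strand: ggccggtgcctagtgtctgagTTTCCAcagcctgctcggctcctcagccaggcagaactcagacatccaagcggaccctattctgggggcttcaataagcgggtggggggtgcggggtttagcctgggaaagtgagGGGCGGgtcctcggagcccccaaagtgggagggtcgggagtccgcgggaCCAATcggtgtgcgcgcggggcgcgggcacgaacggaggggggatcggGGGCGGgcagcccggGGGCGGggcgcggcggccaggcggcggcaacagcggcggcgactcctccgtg
The 2 windows differ in base composition. CpG dinucleotides stood at 0.22 of the number expected from base content in the Col6a4 window and at 0.849 in the Pdlim4 window, against 0.8 for Spag16, 0.638 for Ldlrad3 and a median of 0.384 over 32851 promoters. Col6a4 held 2 GC boxes, Pdlim4 3 and Ldlrad3 1, and Spag16 had no match to any motif searched. A GC box was present in 35.7% of all promoters of this length, a CCAAT box in 37.4% and the NFAT motif in 21.4%. No window held the AP-1 motif TGANTCA, which 7.81% of all promoters of this length hold, or the forkhead motif TGTTTAC, held by 3.65%. The Runx motif TGTGGT was likewise missing from all 4 windows and is found in 16.8% of promoters. The same was true of the ETS motif CCGGAAG, present in 8.86% of promoters, and of the hypoxia response motif ACGTG, present in 19.6%. The E2F motif TTTCCCGC, which only 1.07% of promoters hold, and the TATA box letters TATAAA, which 13.6% hold, were also not found on either strand. Letters in a window say nothing about which factors bind there.

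Library depth and cell content bear on all values that follow. Total counts ran from 18067377 to 40334577, and 14994 genes passed the filter on low counts, among them all 6. Usp21 stood at 26.1 to 29.1 CPM (read counts scaled to a common library size) in dKO, 23.1 to 28.1 in Usp21 KO and 60.8 to 66.2 in WT. Usp22 stood at 21.6 to 28.7 CPM in dKO, 64.8 to 82.1 in Usp21 KO and 69.4 to 72.8 in WT, so each library fell on the side its label gives. Foxp3 stood at 299.8 to 372 CPM in dKO, 669 to 827 in Usp21 KO and 622 to 689 in WT. The 8 Treg markers summed to 3470 to 3773 CPM in dKO, 4286 to 4710 in Usp21 KO and 4279 to 4464 in WT, and 3 of the 8 passed as lower in dKO against WT. Markers of cycling cells summed to 473 to 542 CPM in dKO and 139 to 192 in WT, and 7 of 8 passed as higher. In Usp21 KO they summed to 226, 495 and 256 CPM in replicates 1, 2 and 3, so replicate 2 stood apart from its group and near dKO. Myeloid markers (2 of 12 passed as higher in dKO) summed to 349 to 853 CPM in dKO, 84.4 to 248 in Usp21 KO and 86.0 to 263 in WT. B and plasma cell markers (0 of 9 passed by edgeR) summed to 562 to 766, 167 to 816 and 92.5 to 304 CPM in the same order. CD8 T and NK markers (2 of 10 higher) summed to 115 to 118, 60.03 to 128 and 60.9 to 77.2 CPM, and erythroid and platelet markers (2 of 7 tested higher) to 31.9 to 51.4, 22.4 to 46.6 and 17.2 to 22.4 CPM. In bulk RNA, more cells of a type cannot be told apart from more RNA per cell.

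Across the transcriptome, 5.78% of the tested genes passed in dKO against WT by edgeR's quasi-likelihood test (adjusted p under 0.05), 3.01% as higher and 2.77% as lower. In dKO against Usp21 KO 4.90% passed, 1.70% as higher and 3.20% as lower. Of the genes that passed, 52.1% were higher in dKO against WT and 34.7% in dKO against Usp21 KO. With library totals in place of TMM scaling these shares were 77.4% and 69.9%. In Usp21 KO against WT 0.0133% passed, which is 2 genes. The CPM of the groups did not overlap for 35.9% of genes in dKO against WT, 27.4% in dKO against Usp21 KO and 16.1% in Usp21 KO against WT. Because the 6 genes were chosen on the dKO libraries, their values in the dKO comparisons are given without a test, and only Usp21 KO against WT was tested for them. That comparison holds no dKO library, but its WT or Usp21 KO values may have served as the reference in the choice.

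Col6a4 (ENSMUSG00000032572, mm10 chromosome 9, 105989454 to 106096783, minus strand) was nearly silent outside dKO. It had 9.28, 9.62 and 8.14 CPM in the dKO libraries, 0.360, 0.287 and 0.507 CPM in the Usp21 KO libraries and 0.381, 0.332 and 0.405 CPM in the WT libraries. All 3 dKO libraries were far above the other 6, which lay within a narrow band. Means were 9.01 ± 0.774 CPM in dKO, 0.385 ± 0.112 CPM in Usp21 KO and 0.373 ± 0.0371 CPM in WT (SD, n = 3 each), a dKO to WT ratio of 24.2. The reads behind them numbered 776 over the dKO libraries, 28 over Usp21 KO and 33 over WT. The log2 fold change was 4.57 ± 0.25 (SE) in dKO against WT and 4.56 ± 0.26 in dKO against Usp21 KO. The opposite-strand gene models Gm36993 and Gm47575 share 1.49% and 1.9% of its exon bases, and the strand setting of the counting is not given in the sources used here. None of the other 5 genes shares exon bases with another gene in GENCODE M21.

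Spag16 (ENSMUSG00000053153, chromosome 1, 69826970 to 70725132, plus strand) encodes a component of the axoneme, the microtubule core of motile cilia and sperm tails. It had 3.47, 4.01 and 5.82 CPM in dKO, 1.14, 0.669 and 0.958 CPM in Usp21 KO and 1.62, 1.77 and 0.936 CPM in WT. No dKO library overlapped the other 6, and Usp21 KO overlapped WT. The log2 fold change was 1.63 ± 0.33 in dKO against WT and 2.25 ± 0.34 in dKO against Usp21 KO. Markers of ciliated cells were close to absent, with summed levels of 1.32 to 2.00 CPM in dKO, 1.41 to 2.68 in Usp21 KO and 1.48 to 1.92 in WT and Tekt1 at 0 in every library. Usp21 lies on the same chromosome, 100.6 Mb away.

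Ggt5 (ENSMUSG00000006344, chromosome 10, 75589340 to 75617200, plus strand) and Ampd1 (ENSMUSG00000070385, chromosome 3, 103074014 to 103099720, plus strand) had the most even levels of the 6 among the dKO libraries. Ggt5 had 6.88, 6.89 and 7.17 CPM in dKO, 1.47, 1.10 and 2.37 CPM in Usp21 KO and 1.81, 1.92 and 2.05 CPM in WT. Its dKO libraries varied by 2.39% of their mean, against 39.6% in Usp21 KO and 6.19% in WT. Ampd1 had 12.1, 11.8 and 11.7 CPM in dKO, 4.15, 1.72 and 3.95 CPM in Usp21 KO and 5.43, 4.65 and 5.28 CPM in WT. The dKO libraries varied by 1.72% of their mean, and every Usp21 KO library lay below every WT library. For Ggt5 the log2 fold change was 1.85 ± 0.26 in dKO against WT and 2.10 ± 0.26 in dKO against Usp21 KO. For Ampd1 it was 1.21 ± 0.26 and 1.85 ± 0.27, the larger value being against Usp21 KO. Markers of skeletal muscle, where Ampd1 is best known, summed to 12.02 to 15.0 CPM in dKO, 13.1 to 19.2 in Usp21 KO and 14.7 to 15.8 in WT, with Myh4 at 0 in every library.

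Ldlrad3 (ENSMUSG00000048058, chromosome 2, 101950203 to 102186385, minus strand) varied by 29.3% of its mean within dKO, the widest of the 6 and close to the 27.8% of Spag16. It had 8.51, 4.74 and 6.23 CPM in dKO, 0.886, 1.24 and 3.21 CPM in Usp21 KO and 2.00, 1.73 and 2.55 CPM in WT. The dKO libraries lay above all others, while the highest Usp21 KO library exceeded every WT library. Its log2 fold change was 1.63 ± 0.43 in dKO against WT and 1.91 ± 0.44 in dKO against Usp21 KO, or 2.63 without Usp21 KO replicate 3. Within dKO the library order of Ldlrad3 was also that of the myeloid marker sum, which stood at 853, 349 and 647 CPM in dKO replicates 1, 2 and 3. The order was also shared in WT (254, 86.0 and 263 CPM) but not in Usp21 KO (84.4, 248 and 211 CPM), where Ldlrad3 was highest in replicate 3 and the marker sum in replicate 2. Much of the sum was Lyz2, at 430 ± 207 CPM in dKO. With each marker weighted equally, the mean log2 deviation was 1.49, 0.81 and 1.33 in dKO, -1.49, 0.78 and -0.37 in Usp21 KO and -0.27, -1.85 and -0.43 in WT. On that scale the order of Ldlrad3 was shared in dKO but not in Usp21 KO or WT. The part of myeloid cells in the level of Ldlrad3 was not tested.

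Pdlim4 (ENSMUSG00000020388, chromosome 11, 54054928 to 54069014, minus strand) was the only one of the 6 with every Usp21 KO library above every WT library. It had 4.15, 2.88 and 3.67 CPM in dKO, 1.61, 5.12 and 2.03 CPM in Usp21 KO and 0.381, 0.664 and 0.986 CPM in WT. WT was below both knockout groups without overlap, and the highest single value belonged to Usp21 KO replicate 2. The log2 fold change was 2.35 ± 0.48 in dKO against WT and 0.30 ± 0.44 in dKO against Usp21 KO, with overlapping libraries in the second. Without Usp21 KO replicate 2 the difference between dKO and Usp21 KO was 1.01, and without Usp21 KO replicate 1 it was -0.0041. The cycling marker sum was 542, 473 and 507 CPM in dKO, 226, 495 and 256 CPM in Usp21 KO and 139, 145 and 192 CPM in WT for replicates 1, 2 and 3, and Pdlim4 had the same library order within each group. The part of cycling cells in the Pdlim4 levels was not tested. Usp22 lies 7.08 Mb away on the same chromosome.

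**Figure D1:**
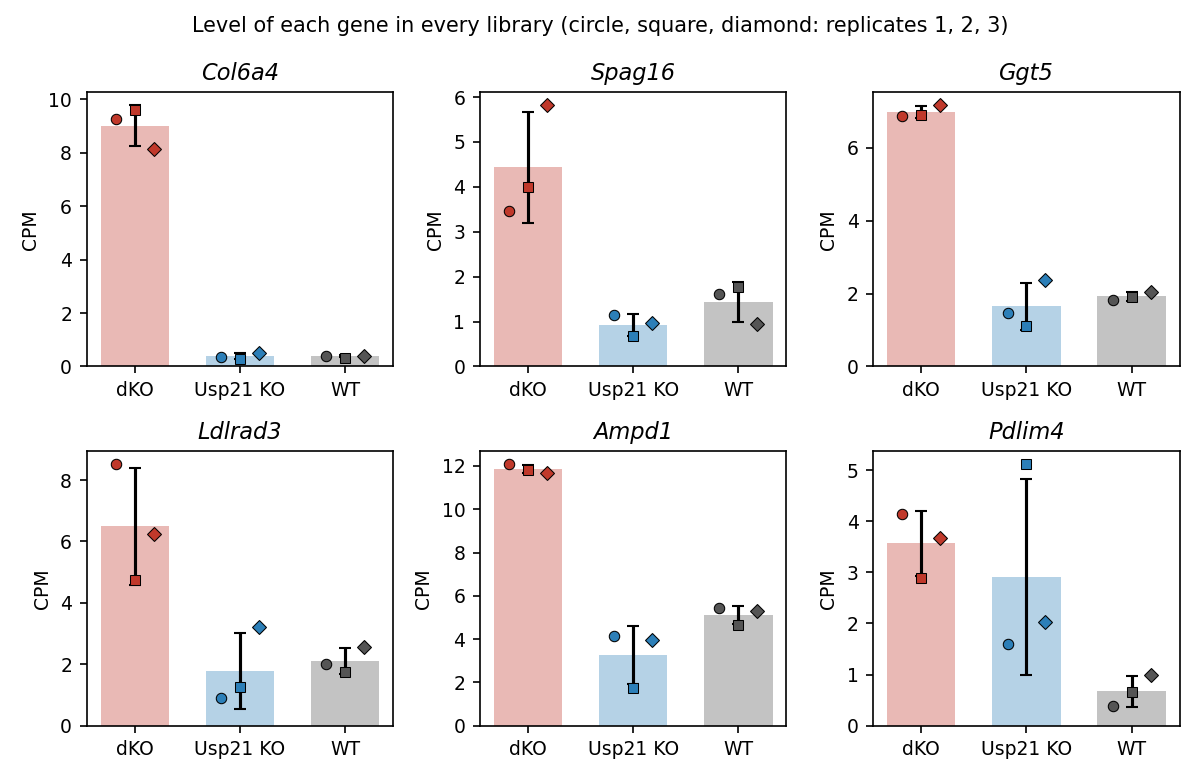
Level of each of the 6 genes (CPM, linear axis from 0) in dKO, Usp21 KO and WT; bars are group means, whiskers are SD over 3 libraries, and symbols are single libraries. In 5 panels the 3 dKO libraries lie above all others, whereas in the Pdlim4 panel Usp21 KO replicate 2 is the highest at 5.12 CPM.

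**Figure D2:**
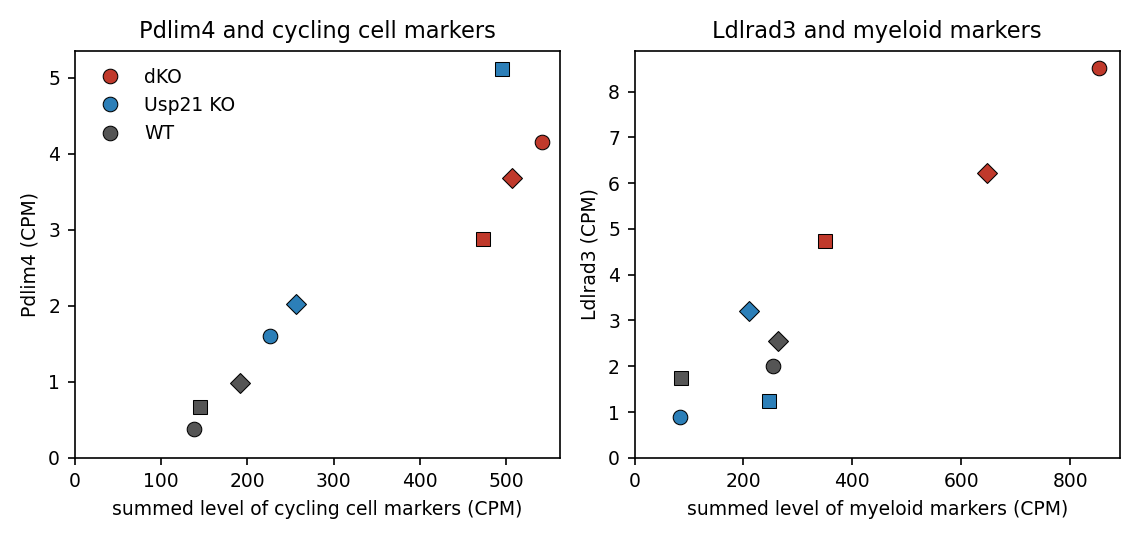
Pdlim4 level against the summed level of 8 cycling cell markers (left) and Ldlrad3 level against the summed level of 12 myeloid markers (right), one point per library, all axes in CPM from 0; symbols are circles, squares and diamonds for replicates 1, 2 and 3. Usp21 KO replicate 2 combines 5.12 CPM of Pdlim4 with a cycling sum of 495 CPM, and dKO replicate 1 combines 8.51 CPM of Ldlrad3 with a myeloid sum of 853 CPM.

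Usp21 KO against WT leaves out the dKO libraries, whose levels chose the genes. The choice named no reference group, so low values in Usp21 KO or WT may have taken part in it. By edgeR 0 of the 6 genes passed in Usp21 KO against WT, 2 had an unadjusted p under 0.05 (as had 10.6% of all tested genes), DESeq2 passed 1 (Pdlim4, among 219 genes in all) and limma voom passed 0. The log2 fold change of Col6a4 was 0.02 ± 0.29 (95% interval -0.62 to 0.65, edgeR adjusted p = 0.998), which lies far below its values in the dKO comparisons. Spag16 stood at -0.61 ± 0.34 (-1.38 to 0.15, adjusted p = 0.554) and Ggt5 at -0.24 ± 0.27 (-0.83 to 0.34, adjusted p = 0.778). Ldlrad3 stood at -0.28 ± 0.44 (-1.27 to 0.70, adjusted p = 0.854). Ampd1 stood at -0.64 ± 0.27 (-1.23 to -0.04, adjusted p = 0.435), with no overlap between the groups. Pdlim4 stood at 2.05 ± 0.48 (0.98 to 3.11, adjusted p = 0.266), again with no overlap. Of all tested genes 16.1% had no overlap in this comparison. DESeq2 gave Pdlim4 2.07 ± 0.51 with an adjusted p of 0.00856, and its adjusted p ranged from 0.00856 to 0.755 over the alternatives. Leaving out Usp21 KO replicate 2 lowered its log2 fold change to 1.35 (edgeR adjusted p = 0.181). A p above the threshold does not show that a gene was unaffected by loss of Usp21, and the intervals for Spag16, Ldlrad3 and Ampd1 reach below -1 on the log2 scale.

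**Figure D3:**
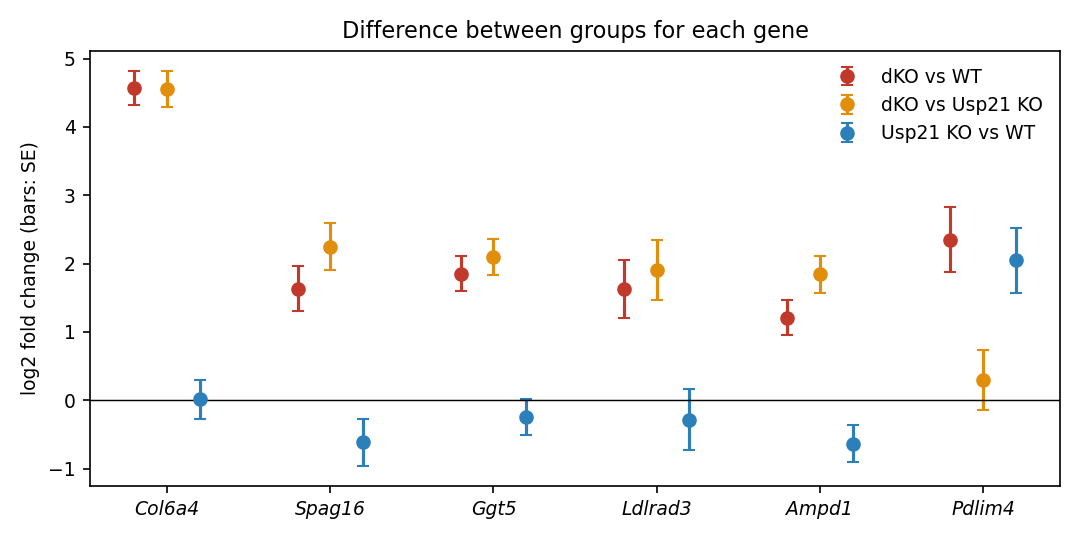
Fitted log2 fold changes of the 6 genes, with bars of 1 SE, for dKO against WT, dKO against Usp21 KO and Usp21 KO against WT. For 5 genes both dKO comparisons lie above 1 and Usp21 KO against WT lies between -0.64 and 0.02, whereas Pdlim4 has 2.05 in Usp21 KO against WT and 0.30 in dKO against Usp21 KO.

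The size of the dKO difference ranged widely over the 6 genes. In dKO against WT all 6 had dKO libraries above every WT library, beside a background of 35.9% of genes without overlap. That count holds the dKO libraries that chose the genes, so nothing is read from it. The median log2 fold change of the 6 was 1.74, against -0.01 over all tested genes. In dKO against Usp21 KO it was 2.00, also against -0.01. There 5 of 6 did not overlap, the exception being Pdlim4, beside 27.4% of all tested genes. That count also holds the dKO libraries that chose the genes, so nothing is read from it either. Among 12505 genes with a mean log2 CPM of at least 0, Col6a4 ranked 9th by rise in dKO against WT, Pdlim4 57th, Ggt5 173rd, Spag16 261st, Ldlrad3 265th and Ampd1 484th. Col6a4 reached that floor only through its dKO libraries. Over all 14994 tested genes the ranks were 25, 122, 276, 405, 413 and 751 in the same order. The ranks hold the dKO libraries that chose the genes, so nothing is read from them. Among the 12505 genes, the 5 largest rises outside the 6 were the immunoglobulin kappa segments Igkv4-80, Igkv3-4 and Igkv4-50, Sh3tc2 and Cpne4. Sh3tc2 stood at 102 ± 169 CPM in dKO because 1 library held 297 CPM while the remaining libraries held 7.87 and 1.03 CPM, against 0.849 ± 0.672 CPM in Usp21 KO and 0.361 ± 0.319 CPM in WT. The 3 kappa segments stood at 3.61 ± 3.94, 2.37 ± 1.47 and 2.08 ± 1.20 CPM in dKO, so they were less even between dKO libraries than the 6 chosen genes. Cpne4 was not, at 3.11 ± 0.791 CPM in dKO, a spread relative to its mean within the range of the 6. The dKO values chose the 6 genes, so nothing is read from their evenness.

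Per kilobase of exon, all 6 were genes of low or moderate level even in dKO. Ampd1 was the highest at 3.34 ± 0.0576 CPM per kb in dKO, above every library of the other 5. Pdlim4 (1.39 ± 0.250), Ggt5 (1.18 ± 0.0281), Ldlrad3 (1.08 ± 0.315) and Col6a4 (1.06 ± 0.0908) followed in dKO, and neighbours in that order overlapped. Spag16 was the lowest at 0.655 ± 0.182 CPM per kb in dKO, below every dKO library of Col6a4 but overlapping Ldlrad3. In Usp21 KO Pdlim4 was the highest at 1.14 ± 0.748 CPM per kb, overlapping Ampd1 at 0.923 ± 0.380. In WT Ampd1 was again the highest at 1.44 ± 0.117 CPM per kb, Ldlrad3, Ggt5, Pdlim4 and Spag16 lay between 0.213 and 0.348 with overlapping neighbours, and Col6a4 was the lowest at 0.0437 ± 0.00435. Col6a4 exceeded 26.9% of the tested genes in dKO, 0.934% in Usp21 KO and 1.23% in WT on this scale. For Ampd1 the same shares were 42.8%, 25.7% and 32.2%. The dKO shares rest on the levels that chose the genes, so nothing is read from how far each gene moved.

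The genes most like each of the 6 were ranked by Pearson r of log2 CPM over the 9 libraries among 12504 genes, as a description. The libraries separate into dKO and the rest, so a high r partly restates that separation. Col6a4 was most like Slc43a1 (r = 0.997), an amino acid transporter gene, which stood at 27.2 ± 1.22 CPM in dKO, 9.34 ± 0.462 CPM in Usp21 KO and 9.46 ± 0.249 CPM in WT. Ctdspl (r = 0.987), Psat1 (0.986), Cpne4 (0.984) and Fam109b (0.977) followed, each with similar means in Usp21 KO and WT. Spag16 was most like Gm17764, Taf13 and Ifi27 (r = 0.959 to 0.977), Ggt5 most like Fbln1, Endod1 and Milr1 (0.983 to 0.987) and Ampd1 most like Fasl, Dennd2c and Slc25a23 (0.978 to 0.984). Ldlrad3 was most like Cybb, a subunit of the phagocyte oxidase, with r = 0.975, followed by Cnga1 and Tcf4. Cybb stood at 133, 92.2 and 138 CPM in dKO, 38.7, 55.4 and 79.9 CPM in Usp21 KO and 65.6, 54.3 and 66.0 CPM in WT. Pdlim4 was most like Ndst1, the mitotic kinase gene Plk1 and Fam64a (r = 0.979 to 0.983). Plk1 stood at 18.2, 16.1 and 17.3 CPM in dKO, 8.42, 18.4 and 10.2 CPM in Usp21 KO and 4.72, 5.46 and 7.38 CPM in WT, with Usp21 KO replicate 2 high as for Pdlim4. Among the 6 genes themselves the highest r was between Col6a4 and Ggt5 (0.973, n = 9) and the lowest between Ampd1 and Pdlim4 (0.124, n = 9).

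Few other genes of the pathways passed. Of 122 genes listed around them 80 were tested. By edgeR 1 passed as higher and 4 as lower in dKO against WT, 0 as higher and 4 as lower in dKO against Usp21 KO, and 0 in Usp21 KO against WT. At an unadjusted p under 0.05 there were 20, 22 and 9 genes in these comparisons, beside 22.4%, 23.6% and 10.6% of all tested genes. DESeq2 passed 8, 10 and 2, and limma voom passed 5, 5 and 0. As a share, 5 of 80 was close to the 5.78% of all genes. With WT replicate 1 or 2 left out none of the 5 passed in dKO against WT by edgeR.

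Around Col6a4 no other chain of collagen VI was present at a level that could be tested. Collagen VI chains assemble as trimers of Col6a1, Col6a2 and one further chain, and mean dKO levels were 0.0303 CPM for Col6a1, 0.172 CPM for Col6a2 and 0 for Col6a3. Of 16 genes for collagen VI chains and receptors 8 were tested, and 0 passed in dKO against WT by each of the 3 tools (1 gene had an unadjusted p under 0.05, and the median log2 fold change was -0.15). Itga7, an integrin chain known mainly as a laminin receptor, stood at 8.88 ± 0.829 CPM in dKO, 17.1 ± 4.57 CPM in Usp21 KO and 12.9 ± 1.54 CPM in WT. It fell in dKO against Usp21 KO (-0.94 ± 0.18, edgeR adjusted p = 0.021, a call kept in 3 of 6 fits that left out a library) and did not pass against WT (-0.54 ± 0.18, adjusted p = 0.116). Markers of stromal and endothelial cells, the usual sources of collagen VI, summed to 232 to 252 CPM in dKO, 199 to 253 in Usp21 KO and 235 to 254 in WT. Nearly all of that sum was Pecam1, and 0 of the 7 tested passed as higher in dKO against WT by edgeR. Among the low markers Pdgfra was at 0 in every library, while Pdgfrb stood at 1.25 ± 0.565 CPM in dKO, 0.441 ± 0.368 CPM in Usp21 KO and 0.261 ± 0.0998 CPM in WT (log2 fold change in dKO against WT 2.26 ± 0.72, adjusted p = 0.0985). Vwf and Kdr stood at 1.17 ± 0.72 and 1.10 ± 0.68 in dKO against WT (edgeR adjusted p = 0.371 and 0.372). Col1a1, Col1a2 and Cdh5 were nearly level, at 0.04 ± 0.34, 0.09 ± 0.37 and 0.04 ± 0.51 (adjusted p = 0.964, 0.920 and 0.972). Col3a1 and Dcn, too low to test, averaged 0.293 and 0.170 CPM in dKO, 0.0723 and 0.0720 CPM in Usp21 KO and 0.0496 and 0.00843 CPM in WT. Lum, also too low to test, averaged 0 in dKO, 0.0188 CPM in Usp21 KO and 0.0243 CPM in WT. With each marker weighted equally, the list's mean log2 deviation was 0.17 to 0.39 in dKO, -0.41 to 0.17 in Usp21 KO and -0.50 to -0.12 in WT, so all dKO libraries lay above all WT libraries. The part of stromal cells in the level of Col6a4 was not tested.

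Around Spag16, 6 of 19 genes of the axoneme central apparatus could be tested. By edgeR and limma voom 0 passed in dKO against WT and DESeq2 passed 1 as lower (2 at an unadjusted p under 0.05, median log2 fold change -0.17). The smallest p belonged to Cfap74, a central apparatus gene, at 6.26 ± 1.36 CPM in dKO, 12.96 ± 3.98 CPM in Usp21 KO and 12.8 ± 3.75 CPM in WT (-1.04 ± 0.28, edgeR adjusted p = 0.0656). Spag6, Spag17 and Hydin, further parts of that structure, were too low to test, with mean dKO levels of 0.13 CPM or less.

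For Ggt5, 14 of 20 genes of gamma-glutamyl, glutathione and leukotriene metabolism were tested and 0 passed in dKO against WT by edgeR or limma voom. DESeq2 passed 1 as higher and 1 as lower, and 5 had an unadjusted edgeR p under 0.05. Ggt1, a gamma-glutamyltransferase whose gene lies 3.14 kb from Ggt5, stood at 5.77 ± 1.15 CPM in dKO, 5.18 ± 1.95 CPM in Usp21 KO and 2.91 ± 0.875 CPM in WT (0.99 ± 0.31 in dKO against WT, edgeR adjusted p = 0.0976). Its Usp21 KO mean was near that of dKO, unlike Ggt5. Lta4h, which makes leukotriene B4, had the smallest p of the list at 223 ± 6.43 CPM in dKO, 255 ± 45.7 CPM in Usp21 KO and 286 ± 9.90 CPM in WT (-0.36 ± 0.11, adjusted p = 0.0878). Ltc4s, which makes the leukotriene C4 that Ggt5 cleaves, was too low to test and at 0 in dKO.

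Of 25 genes of the lipoprotein receptor family and its adaptors listed beside Ldlrad3, 17 were tested. Lrp8, a reelin and apolipoprotein E receptor, rose to 18.9 ± 1.87 CPM in dKO, with 17.3 ± 1.35 CPM in Usp21 KO and 12.2 ± 0.966 CPM in WT (0.63 ± 0.11 in dKO against WT, edgeR adjusted p = 0.0124). With the replicate number as a block the adjusted p was 0.031 for Lrp8, and it kept its call in 3 of 6 fits that left out a library. Itch and Nedd4, ubiquitin ligases that bind Ldlrad3, stood at -0.0028 ± 0.086 and 0.85 ± 0.38 in dKO against WT (adjusted p = 0.988 and 0.229).

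The purine list beside Ampd1 held 26 genes, of which 21 were tested and 1 passed in dKO against WT. Xdh, xanthine dehydrogenase at the end of purine breakdown, fell to 51.8 ± 5.39 CPM in dKO, with 71.3 ± 12.9 CPM in Usp21 KO and 79.1 ± 5.26 CPM in WT (-0.61 ± 0.13, edgeR adjusted p = 0.0227). Its call held in 1 of 6 fits that left out a library. The other AMP deaminase genes were the more abundant ones. Ampd2 stood at 83.5 ± 8.58 CPM in dKO, 93.4 ± 6.33 CPM in Usp21 KO and 82.5 ± 1.65 CPM in WT, and Ampd3 at 29.7 ± 1.45, 33.7 ± 5.43 and 33.5 ± 2.54 CPM in the same order. Their log2 fold changes in dKO against WT were 0.02 ± 0.08 and -0.17 ± 0.12 (adjusted p = 0.933 and 0.414). Nt5e and Entpd1, the ecto-enzymes that make adenosine from ATP on Treg cells, stood at -0.11 ± 0.11 and 0.0012 ± 0.12 (adjusted p = 0.585 and 0.996).

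Beside Pdlim4, 14 of 16 genes of the PDZ-LIM family and its partners were tested, and 2 passed as lower in dKO against WT. Src, a tyrosine kinase that Pdlim4 is known to bring to a phosphatase, fell to 14.4 ± 2.48 CPM in dKO, with 29.2 ± 5.49 CPM in Usp21 KO and 22.3 ± 1.36 CPM in WT. Its log2 fold change was -0.64 ± 0.16 in dKO against WT (edgeR adjusted p = 0.0404) and -1.03 in dKO against Usp21 KO (adjusted p = 0.00767). Src passed under all 14 alternatives in dKO against Usp21 KO and under 8 of 14 against WT. Vasp, which binds actin filament ends, fell to 546 ± 41.8 CPM in dKO, with 686 ± 16.2 CPM in Usp21 KO and 679 ± 26.3 CPM in WT (-0.31 ± 0.07 in dKO against WT, adjusted p = 0.0317, or 0.0619 with the replicate number as a block). The call for Vasp was lost when any single library of that comparison was left out. Pdlim1, Pdlim2, Pdlim5 and Pdlim7, relatives of Pdlim4, lay between -0.14 and 0.26 in dKO against WT, and none passed.

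**Figure D4:**
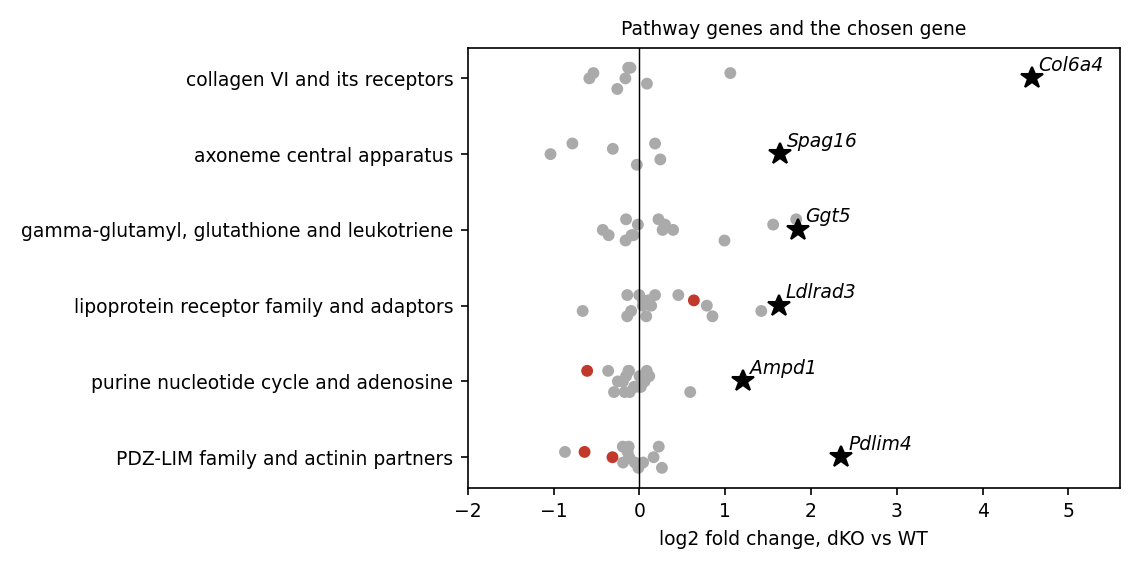
Log2 fold change in dKO against WT for tested genes of 6 lists (circles, red where the edgeR adjusted p was under 0.05) and for the gene each list was drawn around (stars, chosen on their dKO levels and not tested). The red circles are Lrp8 at 0.63, Xdh at -0.61, Src at -0.64 and Vasp at -0.31.

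The surroundings of the 6 genes on the chromosome were compared next. Within 500 kb of any of them 70 other genes were tested, of which 2 passed as higher and 6 as lower in dKO against WT by edgeR (11.4%, beside 5.78% of all genes). All 6 lower ones lay near Col6a4, where 19 genes were tested, 0 passed as higher (11 at an unadjusted p under 0.05 in either direction, 0 higher by DESeq2 or limma voom), and 31.6% passed in all. Rpl29, a ribosomal protein gene 333 kb away, fell to 15.4 ± 0.685 CPM in dKO, with 30.4 ± 2.02 CPM in Usp21 KO and 37.3 ± 1.25 CPM in WT (-1.27 ± 0.08 in dKO against WT, adjusted p = 9.85e-05). Abhd14b and Abhd14a, neighbouring hydrolase genes that overlap on opposite strands, fell, with log2 fold changes of -1.93 ± 0.24 and -0.93 ± 0.16 (adjusted p = 0.00304 and 0.0102). Abhd14b stood at 1.87, 0.977 and 1.35 CPM in dKO, 4.90, 5.35 and 4.68 CPM in Usp21 KO and 5.91, 4.76 and 5.61 CPM in WT, so dKO did not overlap either group. Twf2, Parp3 and Rrp9 fell less (-0.36, -0.38 and -0.47), and each lost its call in all 6 fits that left out a library. The nearest tested genes on each side of Col6a4, Pik3r4 at 302 kb and D030055H07Rik at 51.9 kb, stood at -0.03 ± 0.07 and -0.23 ± 0.36 (adjusted p = 0.86 and 0.756).

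A wider window of 2 Mb was added after Cpne4 had been seen among the largest rises. Around Col6a4 it held 70 tested genes, of which 3 passed as higher and 7 as lower in dKO against WT (14.3%). The higher ones include Cpne4, which prompted the window, so nothing is read from that share. Cpne4, a calcium-dependent membrane-binding protein gene 0.955 Mb from Col6a4, had 81, 58 and 136 reads in dKO, 2, 0 and 0 reads in Usp21 KO and 0, 1 and 1 reads in WT. In CPM it stood at 2.49, 2.83 and 3.998 in dKO, 0.0554, 0 and 0 in Usp21 KO and 0, 0.0369 and 0.0253 in WT. The ratio of dKO to WT reads was 138 per library size, with a 95% interval of 38.0 to 1149 for counting error only. Like Col6a4, Cpne4 was thus near 0 in Usp21 KO and WT and present in every dKO library. Cpne4 was picked for its rise in dKO and passed the filter on low counts only through the dKO libraries. Its values are therefore given without a test. The 6 genes tested between Col6a4 and Cpne4 had log2 fold changes of -0.14 to 0.22 in dKO against WT (smallest edgeR adjusted p = 0.388, for Aste1).

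**Figure D5:**
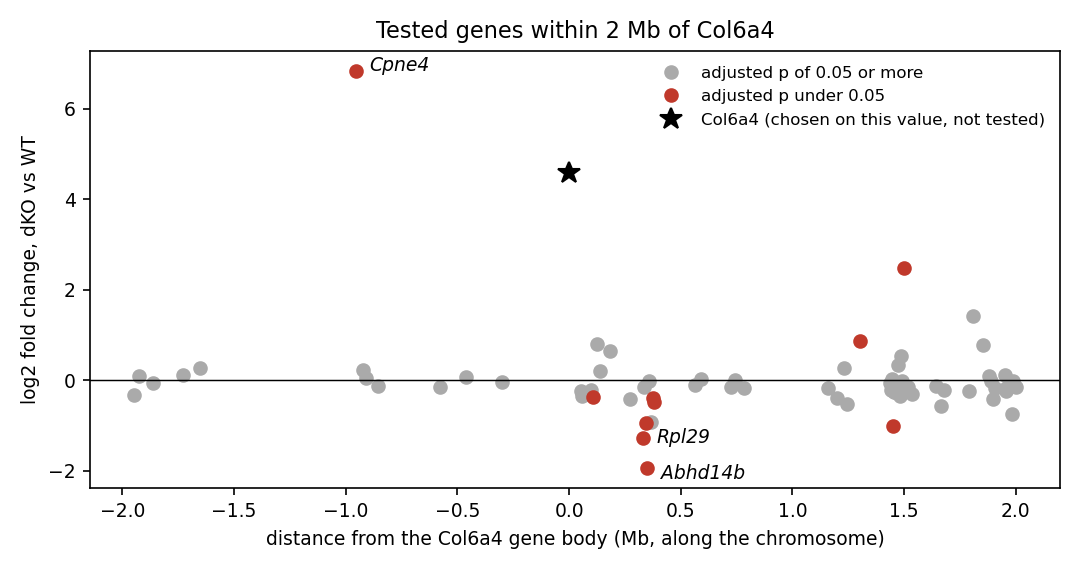
Log2 fold change in dKO against WT of the 70 tested genes within 2 Mb of Col6a4, by distance along the chromosome in Mb from the Col6a4 gene body (red where the edgeR adjusted p was under 0.05, star for Col6a4). Cpne4, at -0.955 Mb, has a fitted value of 6.84 that rests on 2 WT reads, and the lower genes Rpl29 and Abhd14b lie 0.33 and 0.35 Mb on the other side. Cpne4 was picked for its rise, so its red mark is not read as a test.

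Near the other 5 genes few neighbours passed. Il4, the T helper cytokine gene 436 kb from Pdlim4, rose to 5.01 ± 0.234 CPM in dKO, with 1.66 ± 0.434 CPM in Usp21 KO and 1.66 ± 0.205 CPM in WT (1.59 ± 0.25 in dKO against WT, edgeR adjusted p = 0.00676), and it passed under all 14 alternatives. The Il4 means in Usp21 KO and WT were thus alike, whereas Pdlim4 averaged 2.92 CPM in Usp21 KO and 0.677 CPM in WT. Bard1, a DNA repair gene 302 kb from Spag16, rose to 13.1 ± 1.23 CPM in dKO, with 9.51 ± 2.61 CPM in Usp21 KO and 5.93 ± 0.395 CPM in WT (1.14 ± 0.19, adjusted p = 0.0082). Ikzf2, the Treg transcription factor gene Helios on the other side of Spag16, stood at -0.31 ± 0.12 (adjusted p = 0.179). Dennd2c, 2.88 kb downstream of Ampd1, resembled it. It stood at 6.31 ± 0.279 CPM in dKO, 2.91 ± 0.788 CPM in Usp21 KO and 3.67 ± 0.454 CPM in WT, and passed in dKO against Usp21 KO (1.11, adjusted p = 0.0227, kept in 2 of 6 fits that left out a library) but not against WT (0.78 ± 0.22, adjusted p = 0.0657). Gm43062, the nearest gene model before Ampd1, was below 1 CPM in every group mean and did not pass in dKO against WT (0.66 ± 0.53, adjusted p = 0.497). Gm43063, a model inside an intron of Ampd1 on the same strand, stood at 0.701 ± 0.162 CPM in dKO, 0.216 ± 0.106 CPM in Usp21 KO and 0.286 ± 0.0581 CPM in WT. It did not pass either (1.30 ± 0.43 in dKO against WT, adjusted p = 0.109, and 1.75 ± 0.46 in dKO against Usp21 KO, adjusted p = 0.0553). Around Ggt5 and Ldlrad3, 22 and 5 genes were tested and 0 passed in dKO against WT by edgeR (6 and 1 at an unadjusted p under 0.05, 1 and 0 by DESeq2, 0 by limma voom). The nearest tested genes there, Ggt1 and Susd2 for Ggt5 and Commd9 and Trim44 for Ldlrad3, had log2 fold changes of 0.99, -0.43, -0.07 and -0.07. For Pdlim4 the nearest, Slc22a4 and P4ha2, were below 1 CPM in every group mean and did not pass. Slc22a4 had log2 fold changes of 2.18 ± 0.86 in dKO against WT and 2.29 ± 0.87 in Usp21 KO against WT (edgeR adjusted p = 0.172 and 0.391), beside 2.35 and 2.05 for Pdlim4. P4ha2 had 1.51 ± 0.56 in dKO against WT and -0.14 ± 0.64 in Usp21 KO against WT (adjusted p = 0.147 and 0.959).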

How the data were processed

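The deposited table holds raw read counts per Ensembl gene for 9 libraries (3 per group), made by the authors. Per the submitters' processing notes, cutadapt 1.13, STAR, HTSeq 0.6.1p1, DESeq2 1.14.1 and build mm10 were used; the strand option is not given in the sources used here. Counts were analysed with edgeR 4.0.16 in R 4.3.3 (filterByExpr, TMM factors 0.964 to 1.05, robust glmQLFit over all 9 libraries, glmQLFTest, Benjamini-Hochberg over 14994 genes, threshold 0.05). CPM uses TMM-scaled sizes. No 2 libraries were duplicates (lowest chi-square per degree of freedom 5.10). The procedure was also run on simulated counts with changes planted in dKO alone and the spread estimated here. That run holds no differences between mouse lines, and nothing is read from it. Coordinates and exon lengths come from GENCODE M21, promoters from RefSeq.

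The 6 genes, the pathway and marker lists and the rules were chosen with earlier results of these data known. Named beside them were pathway genes that passed (at most 4 per list, otherwise that with the smallest p), the nearest tested gene on each side and any within 500 kb that passed, the 3 most similar genes (5 for Col6a4) and the 5 largest other rises. Any other named gene was picked with its values in view. Alternatives were median-ratio size factors, library totals, other filters, DESeq2 1.42.0, limma 3.58.1 voom, the 6 libraries of a comparison, the replicate block and leaving out each library. The labels give no pairing. In dKO against WT, libraries with the same number deviated together (r = 0.124, 0.259 and 0.118 for replicates 1, 2 and 3). The same r was -0.264, -0.268 and 0.161 in Usp21 KO against WT and -0.109, -0.136 and 0.0732 in dKO against Usp21 KO. The result of 1 listed pathway gene is not reported here, though counts over the lists include it. P-values set a group difference against the spread between libraries, and they do not cover differences between mouse lines.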

Additional observations from a re-analysis of the deposited data

How the results depend on the processing

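Under 14 alternatives for each of 3 comparisons, 245 of 252 log2 fold changes of the 6 genes were labelled stable. In Usp21 KO against WT that means the same sign and side of the threshold, which only 2 of 14994 genes passed by edgeR. In the dKO comparisons, which were not tested for these genes, it means a shift below the larger of the 2 groups' SDs of log2 CPM. A gene that varies widely can thus shift far and keep the label, as Ldlrad3 did in dKO against Usp21 KO (1.56 to 2.63). The count is therefore not read as a measure of robustness. Of the fold changes not labelled stable 5 changed sign, each from a value smaller than its SE. These were Col6a4 in Usp21 KO against WT (-0.0059 by limma voom, -0.18 without Usp21 KO replicate 3, -0.06 without WT replicate 2, with 0.15 the highest with a library left out), Ldlrad3 in the same comparison (0.067 without Usp21 KO replicate 1, with -1.0002 the lowest) and Pdlim4 in dKO against Usp21 KO (-0.0041 without Usp21 KO replicate 1, with 1.01 the highest). Pdlim4 in Usp21 KO against WT passed by DESeq2 alone, the 1 of the 6 to do so, and Ggt5 in dKO against WT moved to 1.95 with library totals.

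Genes passing in Usp21 KO against WT numbered 2, against 1 with the 6 libraries of the comparison, 219 by DESeq2, 40 with no filter and 2 to 15 with a library left out. In dKO against WT they numbered 866, against 2314 with 6 libraries, 1581 by DESeq2, 606 with the replicate block and 193 to 385 with a library left out. In dKO against Usp21 KO they numbered 735, against 176 with 6 libraries, 1728 by DESeq2, 461 with the replicate block and 168 to 2199 with a library left out, the highest without Usp21 KO replicate 2. Pathway genes passing in Usp21 KO against WT numbered 2 by DESeq2 and 0 to 1 with a library left out. In dKO against WT they numbered 17 with 6 libraries, 8 by DESeq2, 2 with library totals, 3 with the replicate block and 0 to 2 with a library left out. In dKO against Usp21 KO they numbered 1 with 6 libraries, 10 by DESeq2, 2 with the replicate block and 1 to 18 with a library left out, the highest again without Usp21 KO replicate 2. Neighbours passing in dKO against WT numbered 8, and 20 in the 2 Mb windows. The cause was not tested. Beside the calls given above, the replicate block changed no sign among the 6 genes. With 6 to 16 reads per library, Col6a4 in Usp21 KO and WT is limited by counting error.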

Other observations

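Among the 6 Usp21 KO and WT libraries, Pdlim4 ran opposite to Ampd1 and Spag16 in log2 CPM (r = -0.89 and -0.89, n = 6, a description of libraries from 2 groups). Fbln1, an extracellular matrix glycoprotein gene that was the most similar to Ggt5, stood at 3.68 ± 0.681 CPM in dKO, 0.973 ± 0.439 CPM in Usp21 KO and 1.07 ± 0.151 CPM in WT. Fasl, a death ligand gene that was the most similar to Ampd1, stood at 11.5 ± 0.621 CPM in dKO, 4.44 ± 1.49 CPM in Usp21 KO and 5.96 ± 1.16 CPM in WT.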
